A study of Homo sapiens with 6 samples.

Results

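The genes described here lie on the short arm of human chromosome 7, around EGFR at its centromeric end and further out towards the telomere. A list of 35 such genes was chosen because earlier results of these same arrays showed a lowered stretch there, so the difference between WZR6 and parental cells selected them. Their values in that comparison are therefore given as a description, with no test. The array's annotation used here named 31 of the 35, out of 11963 genes measured in all. KDELR2, AIMP2, SEC61G and SUMF2 were not analysed here.

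The arrays came from NCI-H1975 cells, an established lung adenocarcinoma line of human origin, in 6 samples of total RNA. WZR6, a derivative resistant to the EGFR kinase inhibitor WZ4002, gave 3 arrays, and the parental, WZ4002-sensitive cells gave 3. WZR6 is 1 resistant clone, so nothing here separates resistance from other properties of that line. Cells of both groups grew exponentially in RPMI with 5% serum, and the labels do not say if WZR6 was kept in the drug until harvest. Nothing in the labels says that replicates were separate cultures, so p-values measure only the spread between these samples, which may be technical. In RNA from bulk cells, fewer cells with a transcript and less transcript per cell cannot be told apart. Values are log2 of the deposited microarray intensity, with 1 probe set (a group of probes read as 1 value) per gene, the brightest over the 6 arrays.

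Epithelial markers were checked first. The keratin KRT18 averaged 14.02 ± 0.04 in WZR6 and 14.14 ± 0.04 in parental cells (SD, n = 3 each, as for the next 2 genes). KRT8 averaged 12.08 ± 0.05 in WZR6 and 12.29 ± 0.09 in parental cells. Another keratin, KRT19, averaged 11.13 ± 0.04 in WZR6 and 12.84 ± 0.02 in parental cells. Limma called KRT8 and KRT19 lower (adjusted p = 0.020 and 6.1e-07) and did not call KRT18. EPCAM and CDH1, which encode adhesion proteins of epithelial cells, were far lower in WZR6: EPCAM averaged 6.17 in WZR6 and 12.43 in parental cells, and CDH1 averaged 6.32 in WZR6 and 12.01 in parental cells. Of 4 leukocyte markers, PTPRC was below the lower quartile of all values (5.27) in both groups, and CD3E averaged 5.74 in WZR6 and 5.80 in parental cells. CD14 averaged 7.49 in WZR6 and 8.45 in parental cells, and ITGB2 averaged 5.49 in WZR6 and 6.86 in parental cells, both called lower by limma. Limma called 2 of 4 lung adenocarcinoma markers and 2 of 5 fibroblast markers lower, and 1 of 4 endothelial markers higher. Of the 22 marker genes measured, 10 were lower and 1 was higher in WZR6 at an adjusted p under 0.05 by limma. Over all genes 23.5% were called lower and 24.5% higher. How far these marker differences bear on the values below was not tested.

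A gene's transcript level depends on the number of gene copies as well as on transcription and RNA decay. The short arm of chromosome 7 is often gained in lung cancer and glioma, and EGFR amplicons commonly carry neighbours such as LANCL2 and VOPP1. The arm also holds genes of basic cell machinery, including translation factors, replication factors, chaperonin and mitochondrial proteins. No measurement of DNA copy number was used here.

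All but 1 of the 31 measured members were lower on average in WZR6. The median difference, WZR6 minus parental, was -0.55 on the log2 scale with an interquartile range of -0.69 to -0.34, against a median of 0.02 and a range of -0.17 to 0.19 over all genes. Limma called 26 members lower and none higher at an adjusted p under 0.05, where 23.5% of all genes were called lower and 24.5% were called higher. In the same 26 members all WZR6 arrays lay below all parental arrays, which held for 27.1% of all genes. Because the comparison chose the members, nothing is read from these counts. Differences were moderate in size, with 14 members lower by 1.5-fold or more and only DNAAF5 and VOPP1 lower by 2-fold or more. Replicates were close, with a median SD over members of 0.060 in WZR6 and 0.063 in parental cells. On single arrays the median over members was 10.75, 10.77 and 10.66 in WZR6 and 11.37, 11.38 and 11.35 in parental cells.

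**Figure D1:**
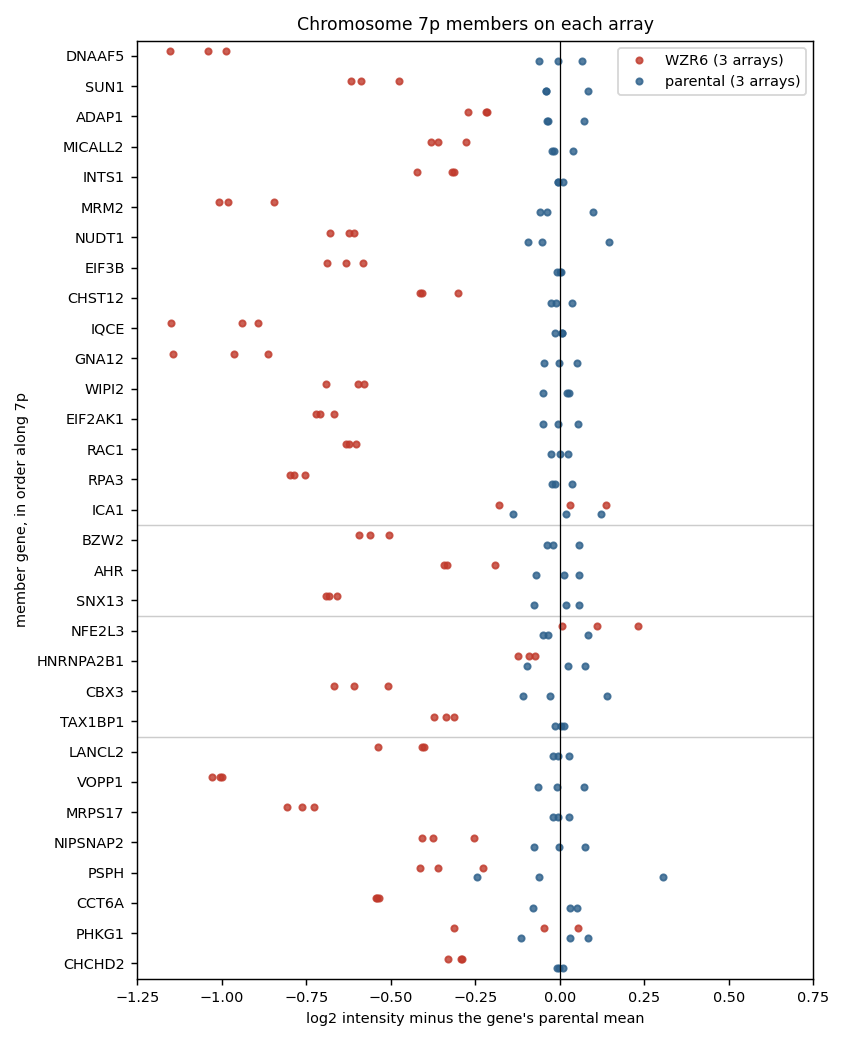
Each row is 1 measured member in order along 7p, and each point is 1 array's log2 intensity minus the gene's parental mean, with 3 WZR6 and 3 parental arrays per gene. Grey lines separate runs of neighbouring members. The WZR6 points lie left of the parental points in 26 rows and overlap them in the rows of ICA1, NFE2L3, HNRNPA2B1, PSPH and PHKG1.

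Members that act in translation and on RNA are given next. EIF3B, a scaffold subunit of the initiation factor eIF3, which brings the small ribosomal subunit to mRNA, stood at 12.03, 11.98 and 12.08 in WZR6 and at 12.67, 12.66 and 12.67 in parental cells. The WZR6 arrays lay below the parental arrays by several times the spread within either group, a 1.55-fold lower level (log2 difference -0.63 ± 0.04, SE). EIF2AK1 encodes the heme-regulated kinase of eIF2 alpha and was at 10.61, 10.65 and 10.59 in WZR6, against 11.37, 11.31 and 11.27 in parental cells. BZW2, a regulator of translation initiation, was at 12.99, 12.94 and 12.91 in WZR6, against 13.48, 13.56 and 13.46 in parental cells. These were 1.62-fold and 1.47-fold lower levels, with no overlap between the groups. INTS1, the scaffold of the Integrator complex that processes small nuclear RNAs, was lower by 1.28-fold. HNRNPA2B1, an abundant RNA-binding protein of splicing and mRNA transport, did not separate, at 13.59, 13.58 and 13.54 in WZR6 and at 13.57, 13.69 and 13.74 in parental cells, so that the groups overlapped.

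MRM2 and NUDT1 are neighbours transcribed away from each other. MRM2, a methyltransferase of mitochondrial ribosomal RNA, was at 10.27, 10.24 and 10.41 in WZR6, against 11.21, 11.19 and 11.35 in parental cells, a 1.93-fold lower level. NUDT1, which removes oxidised nucleotides from the precursor pool, was at 9.65, 9.72 and 9.71 in WZR6, against 10.28, 10.48 and 10.24 in parental cells, a 1.56-fold lower level. Both genes were lower on every WZR6 array. Their RefSeq promoter windows (250 bases before to 50 after the start, GRCh38.p14) overlap, at chr7:2242156-2242455 on the minus strand and chr7:2241976-2242275 on the plus strand, with starts 21 bases apart. The sequences are shown because both windows hold the same stretch of DNA. Capitals mark the GC box, spelled GGGCGG, and the CCAAT box, spelled by its name. The TATA box, spelled TATAAA, was searched as well, each motif on both strands, and no capitals overlap.
MRM2: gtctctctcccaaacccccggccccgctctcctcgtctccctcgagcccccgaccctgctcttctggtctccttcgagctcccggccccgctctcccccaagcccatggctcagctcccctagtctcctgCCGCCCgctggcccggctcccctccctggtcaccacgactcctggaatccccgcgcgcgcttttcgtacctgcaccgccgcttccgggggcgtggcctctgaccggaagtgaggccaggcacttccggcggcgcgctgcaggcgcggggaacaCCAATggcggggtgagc
NUDT1: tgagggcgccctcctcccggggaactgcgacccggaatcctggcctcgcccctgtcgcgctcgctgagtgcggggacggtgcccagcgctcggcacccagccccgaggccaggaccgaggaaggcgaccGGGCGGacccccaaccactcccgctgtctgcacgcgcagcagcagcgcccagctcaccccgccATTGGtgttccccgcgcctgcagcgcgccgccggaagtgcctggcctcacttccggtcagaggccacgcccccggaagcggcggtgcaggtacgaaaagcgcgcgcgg
Each window held 1 GC box and 1 CCAAT box and no TATA box, and the CCAAT box lies in the shared stretch. The windows held 29 (MRM2) and 38 (NUDT1) CpG dinucleotides.

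A second head-to-head pair, CBX3 and HNRNPA2B1, did not move alike. CBX3, a heterochromatin protein 1 family member that binds methylated histone H3, was at 12.61, 12.56 and 12.72 in WZR6, against 13.19, 13.12 and 13.36 in parental cells. Its level was 1.51-fold lower in WZR6 with no overlap, while the HNRNPA2B1 difference was -0.10 ± 0.06 (SE) with overlap. NFE2L3, a CNC family transcription factor encoded next to them, was at 11.01, 11.11 and 11.23 in WZR6 and at 10.95, 10.97 and 11.09 in parental cells. It was the only measured member with a higher mean in WZR6, by 0.12 ± 0.07 (log2, SE), and its groups overlapped. The starts of CBX3 and HNRNPA2B1 in the windows used are 697 bases apart. The windows of the 3 genes are printed to set neighbours with unlike differences side by side, with the same motifs in capitals. They lie at chr7:26201193-26201492 (plus strand), chr7:26200697-26200996 (minus strand) and chr7:26151948-26152247 (plus strand).
CBX3: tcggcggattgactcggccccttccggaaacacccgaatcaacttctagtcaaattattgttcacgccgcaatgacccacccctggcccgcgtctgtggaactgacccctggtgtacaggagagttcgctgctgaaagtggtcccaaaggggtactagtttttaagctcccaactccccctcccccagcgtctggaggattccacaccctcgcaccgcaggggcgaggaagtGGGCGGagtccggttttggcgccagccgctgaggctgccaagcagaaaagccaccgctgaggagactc
HNRNPA2B1: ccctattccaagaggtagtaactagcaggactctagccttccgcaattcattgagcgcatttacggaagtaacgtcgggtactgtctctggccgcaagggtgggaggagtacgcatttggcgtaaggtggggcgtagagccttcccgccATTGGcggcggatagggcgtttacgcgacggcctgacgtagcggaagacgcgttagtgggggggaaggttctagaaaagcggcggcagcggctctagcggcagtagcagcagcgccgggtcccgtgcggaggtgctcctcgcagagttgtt
NFE2L3: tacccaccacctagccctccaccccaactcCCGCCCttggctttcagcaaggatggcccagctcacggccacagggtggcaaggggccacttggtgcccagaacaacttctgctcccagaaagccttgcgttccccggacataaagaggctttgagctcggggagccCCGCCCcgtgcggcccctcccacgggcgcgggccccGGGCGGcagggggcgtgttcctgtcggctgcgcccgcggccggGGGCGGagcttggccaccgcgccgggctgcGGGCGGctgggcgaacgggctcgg
The CBX3 window held 1 GC box, the HNRNPA2B1 window 1 CCAAT box and the NFE2L3 window 5 GC boxes. CpG dinucleotides numbered 19 in the CBX3 window, 29 in that of HNRNPA2B1 and 28 in that of NFE2L3.

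RefSeq windows were matched for 23 of the 31 members, 36 windows in all. A GC box occurred in 25 of the 36 windows, a CCAAT box in 10 and a TATA box in 1. Among all 35116 windows the shares were 45.0% for the GC box, 34.6% for the CCAAT box and 11.5% for the TATA box. The members' windows held a median of 27.5 CpG dinucleotides, between 3 and 51, against 14 in all windows. These matches describe letters, and no binding was measured. Of the 31 members, 29 had a mean level above the median of all values, while the 35116 windows were not matched for level. The 36 windows came from 23 genes, so some genes gave more than 1, and the windows of MRM2 and NUDT1 overlap. Whether the members' windows differ from those of other genes with similar levels was not tested.

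RPA3, the smallest subunit of replication protein A, which coats single-stranded DNA, was at 12.07, 12.03 and 12.02 in WZR6, against 12.86, 12.80 and 12.81 in parental cells. The difference of -0.78 ± 0.04 (log2, SE) made it 1.72-fold lower, without overlap. SUN1, an inner nuclear membrane protein that links the lamina to the cytoskeleton, was at 11.03, 11.06 and 11.17 in WZR6, against 11.61, 11.61 and 11.73 in parental cells, and was 1.47-fold lower.

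Signalling members covered a wide range of differences. RAC1, the small GTPase that drives lamellipodia, was at 13.27, 13.24 and 13.23 in WZR6, against 13.84, 13.89 and 13.87 in parental cells. The 3 WZR6 values lay within a narrow band and well below the parental band, a 1.54-fold lower level. GNA12, the alpha subunit of a heterotrimeric G protein, was at 8.20, 8.48 and 8.38 in WZR6, against 9.34, 9.30 and 9.40 in parental cells, a 1.99-fold lower level. IQCE, which anchors the EVC complex of hedgehog signalling at the cilium, was likewise 1.99-fold lower, at 7.61, 7.87 and 7.82 in WZR6 and 8.75, 8.77 and 8.77 in parental cells. For both genes the WZR6 arrays spread more widely (SD 0.14 each) than the parental arrays (SD 0.05 for GNA12 and 0.01 for IQCE). AHR, the ligand-activated receptor for dioxins and tryptophan metabolites, differed less, at 11.14, 11.15 and 11.29 in WZR6 and 11.41, 11.50 and 11.54 in parental cells, a 1.22-fold lower level. ADAP1, an Arf GTPase-activating protein, was 1.18-fold lower and MICALL2, a RAB13 effector of junction assembly, was 1.27-fold lower. The ADAP1 difference was the smallest among the 26 members whose groups did not overlap.

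The genes next to EGFR on its centromeric side were LANCL2, VOPP1, MRPS17, NIPSNAP2, PSPH, CCT6A, PHKG1 and CHCHD2, with no other measured gene among them. VOPP1, which is often co-amplified with EGFR, was at 10.62, 10.64 and 10.65 in WZR6, against 11.72, 11.64 and 11.58 in parental cells, a 2.02-fold lower level. MRPS17, a protein of the small mitochondrial ribosomal subunit, was at 10.97, 10.93 and 10.88 in WZR6, against 11.69, 11.72 and 11.67 in parental cells, and was 1.70-fold lower. CCT6A, a subunit of the cytosolic chaperonin that folds actin and tubulin, was at 12.33, 12.34 and 12.33 in WZR6, against 12.79, 12.92 and 12.90 in parental cells, and was 1.45-fold lower. None of these 3 genes overlapped between groups. LANCL2, a LanC-like protein, was 1.37-fold lower, the mitochondrial protein NIPSNAP2 was 1.27-fold lower and CHCHD2, a mitochondrial protein with paired cysteine motifs, was 1.23-fold lower. CHCHD2 stood at 14.06, 14.06 and 14.02 in WZR6 and at 14.34, 14.35 and 14.36 in parental cells, a small but separate difference. PHKG1, the catalytic subunit of muscle phosphorylase kinase, was below the lower quartile of all values in both groups, at 5.07, 4.71 and 4.97 in WZR6 and 5.10, 4.90 and 5.05 in parental cells, so its level was not measured well enough to compare.

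EGFR itself, which is no member, stood at 9.89, 9.94 and 9.72 in WZR6 and at 10.67, 10.72 and 10.60 in parental cells. Its difference of -0.81 ± 0.07 (log2, SE; limma adjusted p = 9.2e-05) lay within the range of its neighbours. The other bright probe set of EGFR had a smaller difference, -0.45 ± 0.04 (SE), without overlap. Leaving out probe sets that can hybridise to several transcripts left a dim EGFR probe set, with a mean of 6.04 in WZR6 and 6.05 in parental cells, which was not called (difference -0.01, adjusted p = 0.98 by limma).

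The other members serve vesicles, autophagy, cilia and metabolism. DNAAF5, a factor that preassembles axonemal dynein, had the largest difference, at 11.39, 11.33 and 11.22 in WZR6 and 12.37, 12.44 and 12.31 in parental cells, a 2.09-fold lower level. WIPI2, which reads phosphoinositide on forming autophagosomes, was at 10.75, 10.77 and 10.66 in WZR6, against 11.37, 11.38 and 11.30 in parental cells, and was 1.54-fold lower. TAX1BP1, an autophagy receptor for ubiquitinated cargo, was 1.27-fold lower. SNX13, a sorting nexin, was at 9.68, 9.71 and 9.67 in WZR6, against 10.29, 10.42 and 10.38 in parental cells, a 1.60-fold lower level. CHST12, a sulfotransferase of chondroitin chains, was 1.30-fold lower, and both groups were tight. ICA1, a BAR domain protein of secretory vesicles, was dim, and its brightest probe set did not separate, at 5.96, 5.86 and 5.65 in WZR6 and 5.84, 5.95 and 5.69 in parental cells. Of its 4 other probe sets, all below the median of all values, 2 were called lower by limma without overlap, at -0.39 and -0.38, and 2 lay near 0, at -0.03 and -0.00.

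PSPH, which catalyses the last step of serine synthesis, depended on the probe set. The brightest one read 9.36, 9.30 and 9.49 in WZR6 and 9.66, 9.48 and 10.03 in parental cells, with the widest parental spread of any member (SD 0.28) and overlap between the groups. A dimmer probe set of the same gene read 7.92, 7.85 and 8.003 in WZR6 and 9.76, 9.77 and 9.83 in parental cells, without overlap, a difference of -1.86. RefSeq names 1 pseudogene after PSPH, and which transcripts each probe set reads was not tested.

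Over all 31 members there were 54 probe sets, of which 51 had a difference below 0. Limma called 41 of the 54 lower, where 19.5% of all probe sets were called lower, and called none higher, and the shared choice of members again leaves nothing to read from this. Of the 15 members with more than 1 probe set, 8 (ADAP1, CBX3, CCT6A, EIF3B, MRM2, RAC1, SUN1 and TAX1BP1) had differences that lay within 0.2 of each other. SNX13 had the brightest probe set at -0.68 and dimmer ones at -0.12 and 0.01. INTS1 had a dim second probe set at 0.08, and EIF2AK1 one at -0.14. For these 3 genes the dimmer probe sets lay below the median of all values (7.38) in both groups. RefSeq names pseudogenes after 10 of the measured members, among them 11 after CHCHD2, 10 after CBX3 and 9 after RAC1, so the values of these genes may include signal from copies.

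**Figure D2:**
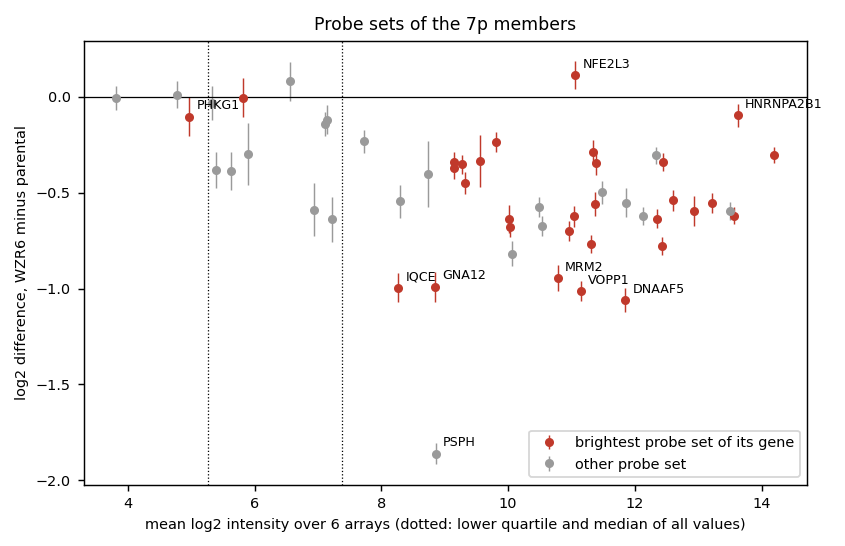
Each point is 1 of the 54 probe sets of the members, by its mean log2 intensity over 6 arrays and its log2 difference, WZR6 minus parental (bars, SE), with dotted lines at the lower quartile (5.27) and median (7.38) of all values. Differences near 0 are more frequent among dim probe sets, and the lowest point is the second PSPH probe set at -1.86.

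The members fall into 4 runs along the arm when runs are split wherever more than 9 other measured genes intervene. From DNAAF5 to ICA1, nearest the telomere, 16 members had a median difference of -0.63, and limma called 13 of the 18 other genes lying between them lower (median -0.37). From BZW2 to SNX13, 3 members had a median of -0.55, and both genes between them, TSPAN13 and AGR2, were called lower, by -1.20 and -4.19. The run with the smallest differences went from NFE2L3 to TAX1BP1, where 4 members had a median of -0.22 and 2 of the 6 other genes between were called lower (median -0.04). From LANCL2 to CHCHD2 the 8 members had a median of -0.40. Over all genes limma called 23.5% lower, and 32.3% of those with a mean level above the median of all values. The share among the other genes between members was 72.2% in the run from DNAAF5 to ICA1 and 33.3% in that from NFE2L3 to TAX1BP1. These are few genes, and the differences between the runs were not tested.

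The nearest measured genes just outside the runs were also read. ANKMY2, next to BZW2, was lower by 1.57-fold (limma adjusted p = 5.9e-05), at 9.72, 9.79 and 9.67 in WZR6 and 10.34, 10.39 and 10.40 in parental cells. Past CHCHD2, across the centromere, ZNF107 had a difference of -1.74 ± 0.10 (log2, SE; limma adjusted p = 2.1e-05). CREB5, next to TAX1BP1, had a difference of -0.26 and passed narrowly (limma adjusted p = 0.049). ANKMY2, ZNF107 and CREB5 were each read from a probe set that can hybridise to several transcripts. With such probe sets left out, these genes had no value. PRKAR1B and MGC4859 beside the first run, PRPS1L1 next to SNX13 and NPVF next to NFE2L3 were not called, with differences of -0.04, 0.10, -0.03 and 0.06. MGC4859, PRPS1L1 and NPVF were below the lower quartile in both groups, with WZR6 means of 3.95, 3.95 and 4.16 and parental means of 3.86, 3.98 and 4.11, so these 3 were too dim to compare.

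The lowered level was not confined to the members or to 7p. Among the 134 other measured 7p genes, limma called 77 lower (57.5%) and 4 higher (2.99%), with a median difference of -0.30. On 7q, 203 of 374 genes were called lower (54.3%) and 15 higher (4.01%), with a median of -0.25. The medians of the 21 other autosomes lay between -0.09 and 0.17. Since earlier results of these arrays had already pointed to this chromosome, these counts are no independent support.

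**Figure D3:**
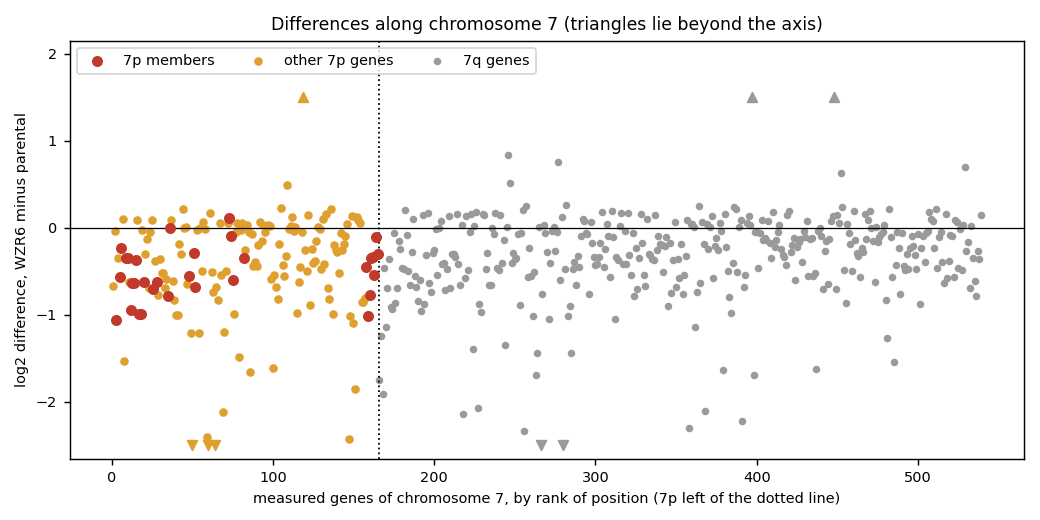
Each point is 1 measured gene of chromosome 7 by its rank of position, with the log2 difference, WZR6 minus parental, on the other axis. Members are red, the 134 other 7p genes orange and the 374 7q genes grey, and triangles mark 5 genes below -2.5 and 3 above 1.5. Most points lie below 0 on both arms, and the band near 0 runs along the whole chromosome.

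Brightness bears on how many genes were called. Of the members, 29 had a mean level above the median of all values, and all 26 called lower were among them. With the same minimum level, and with levels not matched above it, 63 of 72 other 7p genes (87.5%) were called lower with a median of -0.57, and 165 of 207 genes on 7q (79.7%) with a median of -0.41. Over all genes above that minimum, 2231 of 6916 (32.3%) were called lower and the median was 0.02. The 29 members above it had a median of -0.56. Below the lower quartile, where signal is mostly background, 2 of 31 other 7p genes and 9 of 79 genes on 7q were called lower, with medians of 0.01 on both arms.

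**Figure D4:**
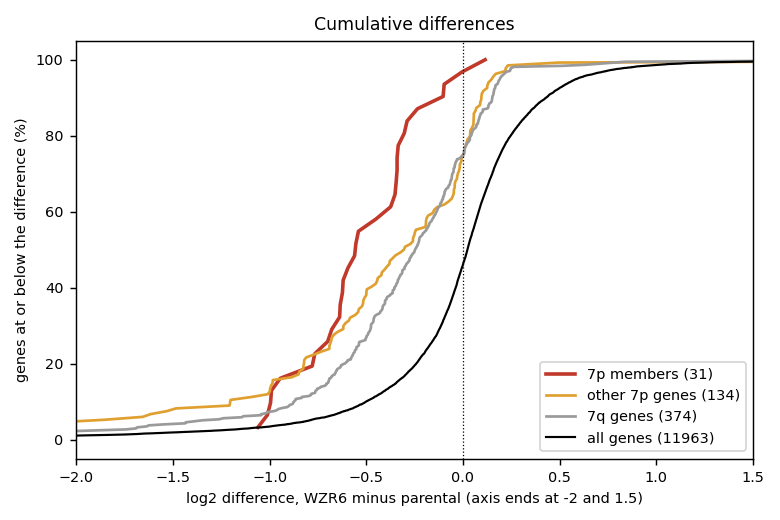
Lines give the percent of genes at or below each log2 difference, WZR6 minus parental, for 31 members, 134 other 7p genes, 374 7q genes and all 11963 genes. The lines of 7p and 7q genes lie left of that of all genes, and the members' line, chosen by this difference, ends at 0.12.

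The other 7p genes with the largest called differences each way, and no overlap between groups, are given next. INHBA, which encodes the activin A subunit, stood at 10.97, 10.82 and 10.83 in WZR6 and at 6.53, 6.62 and 6.47 in parental cells, a difference of 4.33 (limma adjusted p = 1.0e-07). The INHBA difference was 3.49 with values below the overall median raised to it, 3.08 with its probe sets averaged and 1.83 without cross-hybridising probe sets. AOAH, a lipopolysaccharide-degrading enzyme, was 1.41-fold higher (limma adjusted p = 0.00045), and IL6 and MYL7 were called higher with differences of only 0.17 and 0.16. Those last calls were lost under several alternative settings. In the other direction, GPNMB, a transmembrane glycoprotein, stood at 5.38, 5.56 and 5.22 in WZR6 and at 10.85, 10.69 and 10.84 in parental cells, a difference of -5.41 (limma adjusted p = 1.8e-07). AGR2, a secretory disulfide isomerase of epithelia, differed by -4.19, STEAP1B by -3.48 and RAPGEF5, an exchange factor for Ras family GTPases, by -2.40, each called lower by limma. The WZR6 means of these 4 genes lay near or below the lower quartile (GPNMB 5.39, AGR2 4.63, STEAP1B 5.61 and RAPGEF5 4.36), so the differences have no firm size. With values below the overall median raised to it, they became -3.41 for GPNMB, -1.44 for AGR2, -1.71 for STEAP1B and 0 for RAPGEF5. IGFBP3, an insulin-like growth factor binding protein, averaged 9.91 in WZR6 and 12.34 in parental cells and was 5.37-fold lower.

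Members that are subunits of complexes were set beside partners encoded elsewhere, in 22 lists of complexes, pathways and paralogues with 149 measured genes. Of these, limma called 34 lower (22.8%) and 54 higher (36.2%), and 61 were not called, with a median difference of 0.06. Over all genes 23.5% were called lower and 24.5% higher. Most partners, 132 of the 149, had a mean level above the median of all values. Among all genes above that level 32.3% were called lower and 35.3% higher, so the share of partners called higher is near that background. All but 2 of the 149 lie on other chromosomes. Differences were negative in 30 of the 31 measured members, and 5 of the 31 were not called. The differences of the partners lay on both sides of 0. Because members were chosen for low values, the gap between members and partners is a description.

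Lists whose called partners were mostly higher are given first. Other lists leaned lower, with medians of -0.25 for paralogues of members and -0.23 for phosphorylase kinase subunits. The lists were not tested against each other, and their counts stand beside the 24.5% of all genes called higher and 23.5% called lower. Among genes above the median of all values, where most partners lie, these shares were 35.3% and 32.3%. The 6 measured chaperonin partners of CCT6A had differences between 0.07 and 0.25, and 3 rose, among them CCT5 (0.25 ± 0.05) and CCT3 (0.18 ± 0.05; log2, SE, limma adjusted p = 0.0052 and 0.013). The CCT3 call was lost without WZR6 replicate 1, with a difference of 0.16. Of 11 eIF3 partners of EIF3B, 6 rose, with EIF3M at 0.56 and EIF3I at 0.54, 1 fell and 4 were not called (median 0.26). Both partners of RPA3 rose, RPA2 by 0.83 ± 0.05 and RPA1 by 0.28 ± 0.04 (log2, SE, limma adjusted p = 1.8e-05 and 0.0015). The enzymes PHGDH and PSAT1, which precede PSPH in serine synthesis, rose by 1.13 and 1.05 (limma adjusted p = 3.0e-05 and 4.9e-05), and 2 serine hydroxymethyltransferases were not called.

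Partners in other complexes moved both ways. Among 19 proteins of the small mitochondrial ribosomal subunit, 4 fell, 6 rose and 9 were not called (median 0.05), with MRPS31 at 0.57 and MRPS10 at 0.56. Of 9 Integrator subunits, 2 fell and 3 rose, with INTS6 at 0.57 and INTS7 at -0.44, which turned to 0.21 when cross-hybridising probe sets were left out. Beside EIF2AK1, the eIF2 alpha kinase EIF2AK3 rose by 0.71 and the eIF2 subunit EIF2S3 by 0.58. The autophagy list of WIPI2 and TAX1BP1 had 4 of 12 genes lower and 2 higher, with the cargo receptors SQSTM1 at -0.99 and OPTN at 0.62. Nuclear envelope partners of SUN1 had 3 of 5 higher and 1 lower, with SUN2 at 0.45 and SYNE1 at -0.76, the last with a WZR6 mean of 5.04, below the lower quartile.

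**Figure D5:**
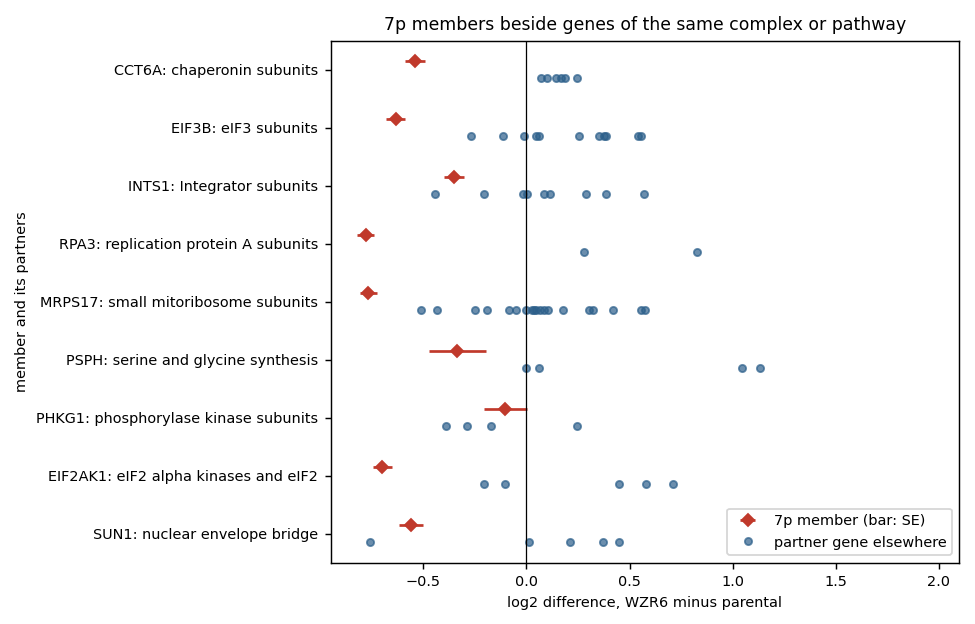
Rows are 9 of the 22 lists, with the log2 difference, WZR6 minus parental, of the 7p member as a red diamond (bar, SE) and of each measured partner encoded on another chromosome as a blue point. The difference of each member shown is below 0, but those of PSPH and PHKG1 were not called. Partners lie on both sides of 0, those of CCT6A between 0.07 and 0.25. The 9 lists follow no set rule, and those of NFE2L3 and of the paralogues are among the lists not shown.

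AHR partners included ARNT, its dimerisation partner, at 0.27 and the chaperone HSP90AB1 at 0.24, while the AHR-induced genes had 2 of 6 lower and 1 higher, with NQO1 at -0.82 and a dim CYP1A1 at 0.32. Of the 6 CNC and small MAF factors beside NFE2L3, 4 rose, among them NFE2L1 (0.28) and BACH1 (0.26). In chondroitin synthesis beside CHST12, 3 of 8 genes rose, with the transferases CSGALNACT1 at 1.59 and CHST7 at 1.47, and 1 fell. Of 4 phosphorylase kinase subunits, PHKA1 and PHKB fell by 0.39 and 0.29, PHKA2 rose by 0.24 and PHKG2 was not called (-0.17). Of 4 genes of G12 family signalling limma called GNA13 (-0.41), whose means of 4.82 in WZR6 and 5.23 in parental cells were both below the lower quartile, too dim to compare. Of 5 measured genes in the hedgehog list of IQCE, PTCH1 (0.86) and EVC (0.70) rose and GLI3 (-0.25) fell. The other 2 were not called, the list's median was -0.03, and GLI3 itself lies on 7p. NUDT1's repair list had MUTYH at 0.38 and NUDT18 at -0.22, and neither measured dynein assembly partner of DNAAF5 was called. Lists made for members that were not analysed here went both ways. Of 3 SEC61 channel subunits, SEC61A1 fell (-0.54) and 2 rose, among them SEC61B (0.28). Of 6 genes of the multi-tRNA synthetase complex, EPRS1 (0.56) and IARS1 (0.41) rose, 2 fell and 2 were not called (median 0.01). Paralogues of members were mostly lower, 8 of 13 with 3 higher and a median of -0.25, with SNX19 at -0.75 and BZW1 at -0.58.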

How the data were processed

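Total RNA of 3 WZR6 and 3 parental samples was measured on 1-colour arrays. The authors deposited linear intensity values computed by RMA (version not stated), per the submitters' processing notes. The log2 of these values was taken with no further normalization, since the deposited intensities have array medians of 163 to 171. The table held 22277 probe sets, of which 62 controls were left out. Of the 22215 tested, 19064 named 1 gene, 1043 named several and were not used for genes, and 2108 were not named in the platform annotation used here, which may be old. Symbols were updated to RefSeq by Entrez ID for 19052. The number of arrays limits precision.

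WZR6 and parental samples, grouped by title, were compared with limma 3.58.1 (R 4.3.3; lmFit, eBayes, two-sided, Benjamini-Hochberg over all genes, called at an adjusted p under 0.05). The fit was tried on simulated data with independent noise and few changed genes, all lowered. That setting differs from these data, where many genes were called in both directions. Chromosome arms were split at the widest gap between measured genes in RefSeq's order (GRCh38.p14). Members and lists were chosen with earlier results of these data known. Genes named are every member, EGFR and the nearest neighbours of each run. Up to 2 called genes with the largest differences in each partner list are named too. So are up to 5 called 7p genes with the largest differences each way. TSPAN13, GLI3, PHKA2 and PHKG2, and markers including KRT8 and KRT18, are named as well. Alternatives covered normalization, dim probe sets, the variance model, pairing, probe set choice and leaving out each array. The partner list of RAC1 is counted in the totals but is not reported here.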

Additional observations from a re-analysis of the deposited data

How the results depend on the processing

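The members' median difference of -0.55 became -0.57 with cyclic loess, -0.51 with arrays centred on their medians, -0.52 with probe sets averaged per gene and -0.40 without probe sets whose suffix marks possible cross-hybridisation (_x_at and _s_at), and lay between -0.580 and -0.525 when 1 array was left out. Leaving out those probe sets, with 8369 genes left, gave 3487 called genes, 13 of 19 members lower, 46 of 96 other 7p genes and 122 of 269 7q genes lower, and 55 of 102 partners called; fewer genes were tested there, and other probe sets stand for some of them. It also turned INTS1 (0.082), SNX13 (0.012) and INTS7 (0.21) to positive differences, read from other probe sets. In every other setting run, 26 or 27 members were called lower. Whether the replicate numbers pair the samples is not settled. Correlations of same-numbered arrays were 0.00599, 0.0945 and 0.233, and those of differently numbered arrays lay between -0.199 and 0.113. A fit with the replicate block gave 5729 called genes, against 5748 without it, and 27 members lower. The median of all genes moved by less than 0.1 under every scaling. With values below the overall median raised to it, RAPGEF5, GNA13, SYNE1, CYP1A1 and MYL7 had a difference of 0 and were not called. Calls of CREB5, IL6, MYL7, NUDT18 and CYP1A1 were lost when single arrays were left out: CREB5 at -0.18 without WZR6 replicate 1, IL6 at 0.14 without parental replicate 3, MYL7 at 0.14 without parental replicate 1, NUDT18 at -0.16 without parental replicate 1 and CYP1A1 at 0.28 without WZR6 replicate 3. With probe sets averaged, PRKAR1B was called (-0.28) and INTS7 was not (-0.12). Dim probe sets limit ICA1 and PHKG1, and WZR6 is 1 clone.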
